A study of Homo sapiens with 8 samples.

Results

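The 10 genes described here are CTGF, CYR61, ANKRD1, AMOTL1, AMOTL2, LATS2, AXL, TEAD1, YAP1 and WWTR1, which are transcriptional targets, negative regulators and core factors of the YAP branch of the Hippo pathway. They were taken by symbol from the deposited gene table, where all 10 of the 10 symbols had an entry among 23354 genes. CTGF and CYR61 are the older symbols of CCN2 and CCN1. All 10 passed the filter on low counts, through levels that were well above it in every library.

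The cells were mesenchymal stromal cells made from H9, a widely used line of human embryonic stem cells, grown on gelatin-coated flasks and used at passages 8 to 12, and their RNA was sequenced. The 8 libraries each stood for a different condition. The 3 fresh libraries were cells at 0 h, cells held for 1 h in medium and cells held for 1 h with DMSO, a penetrating cryoprotectant. The 2 DMSO-frozen libraries were cells held with DMSO for 0 h or 1 h, cooled at 1 °C/min and thawed. The 3 osmolyte-frozen libraries were cells frozen without DMSO at 3 °C/min, after 2 h in the solution labelled SMC or 1 h in those labelled SGC and SGI, and thawed. Freezing solution and cooling rate changed together, so they cannot be told apart, and no unfrozen library with an osmolyte solution was analysed here. All libraries came from 1 cell line, and nothing in the labels says that they came from separate cultures. Since each group pools different conditions, p-values here set differences against the spread between these libraries. That spread is not the variation between replicates of any 1 condition.

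In the Hippo pathway, the kinases STK3 and STK4 activate LATS1 and LATS2, which phosphorylate the coactivators YAP1 and WWTR1 (the protein TAZ) and hold them in the cytoplasm. When the kinases are less active, as in spread cells on a stiff substrate, YAP1 and WWTR1 enter the nucleus and bind TEAD factors at target genes such as CTGF, CYR61 and ANKRD1. Several targets, among them LATS2 and AMOTL2, encode proteins that restrain YAP1, which gives the pathway a negative feedback. In mesenchymal stromal cells the pathway is known for its part in sensing shape and substrate.

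Counts summed to between 41198716 and 51166666 per library. The 6 markers of mesenchymal stromal cells (NT5E, ENG, THY1, CD44, ALCAM and PDGFRB) were all present, and their summed level was 2352 to 2501 CPM (normalised counts at an equal library size) in the fresh libraries, 2250 to 2272 in the DMSO-frozen and 1574 to 1697 in the osmolyte-frozen. Of 6 haematopoietic markers, HLA-DRA was at 0 in every library and PTPRC was at most 0.174 CPM. Summed over those 6 markers the level was 1.71 to 2.59 CPM, most of it CD34. The 6 pluripotency markers summed to 6.86 to 8.59 CPM in the fresh and DMSO-frozen libraries and to 10.5 to 13.8 in the osmolyte-frozen ones. The 4 endothelial markers summed to 34.9 to 53.8 CPM, almost all of it TEK, and the 4 epithelial markers to 1.70 to 3.93 CPM. The nuclear RNAs MALAT1 and NEAT1 took 0.846 to 0.948% of counts in the osmolyte-frozen libraries, 0.393 to 0.452% in the DMSO-frozen and 0.472 to 0.567% in the fresh. In such bulk samples, fewer cells of a type and less RNA per cell cannot be told apart.

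Per kilobase of the length that the deposited table labels as coding length, CTGF and CYR61 were the most abundant of the 10 genes in every group. In fresh cells CTGF averaged 465 ± 218.5 CPM per kilobase and CYR61 439 ± 168 (SD, n = 3 libraries), and the spread of these neighbours overlapped. AXL followed at 117 ± 7.12 CPM per kilobase, apart from both neighbours in the order by more than their SDs. Next came AMOTL2 at 54.9 ± 13.6, WWTR1 at 41.4 ± 5.79 and YAP1 at 37.6 ± 3.75, each of which overlapped the next within its SD. TEAD1 at 26.3 ± 2.90, ANKRD1 at 20.4 ± 1.29, AMOTL1 at 16.0 ± 0.233 and LATS2 at 8.61 ± 0.228 CPM per kilobase were the least abundant and lay apart from each other by more than their SDs. In DMSO-frozen cells the order was the same except that WWTR1 (48.0 ± 1.84) and AMOTL2 (47.8 ± 1.93, SD, n = 2) could not be separated. In osmolyte-frozen cells ANKRD1 stood higher in the order, at 68.1 ± 5.07 CPM per kilobase, level with AXL at 69.5 ± 3.67 and above AMOTL2 at 51.1 ± 4.64 (SD, n = 3), while YAP1 at 25.3 ± 3.17 overlapped TEAD1 at 27.9 ± 2.25. LATS2 at 12.96 ± 1.13 and AMOTL1 at 10.7 ± 1.21 came last there and overlapped. The least deeply counted value was ANKRD1 in the frozen 1 h DMSO library, at 35.45 CPM with a 95% exact Poisson interval of 33.05 to 37.98, which covers counting error only.

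Over the libraries, ANKRD1 varied most, 4.11-fold between its highest and lowest value on the CPM scale, followed by CTGF at 3.52-fold and CYR61 at 2.47-fold. TEAD1 varied least, 1.31-fold. The plot of levels by library shows 3 shapes among the 10 genes: CTGF and CYR61 were low in each of the 3 libraries with DMSO, ANKRD1 stood apart in the 3 osmolyte-frozen libraries, and AMOTL1, AXL and YAP1 were lowest there.

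**Figure D1:**
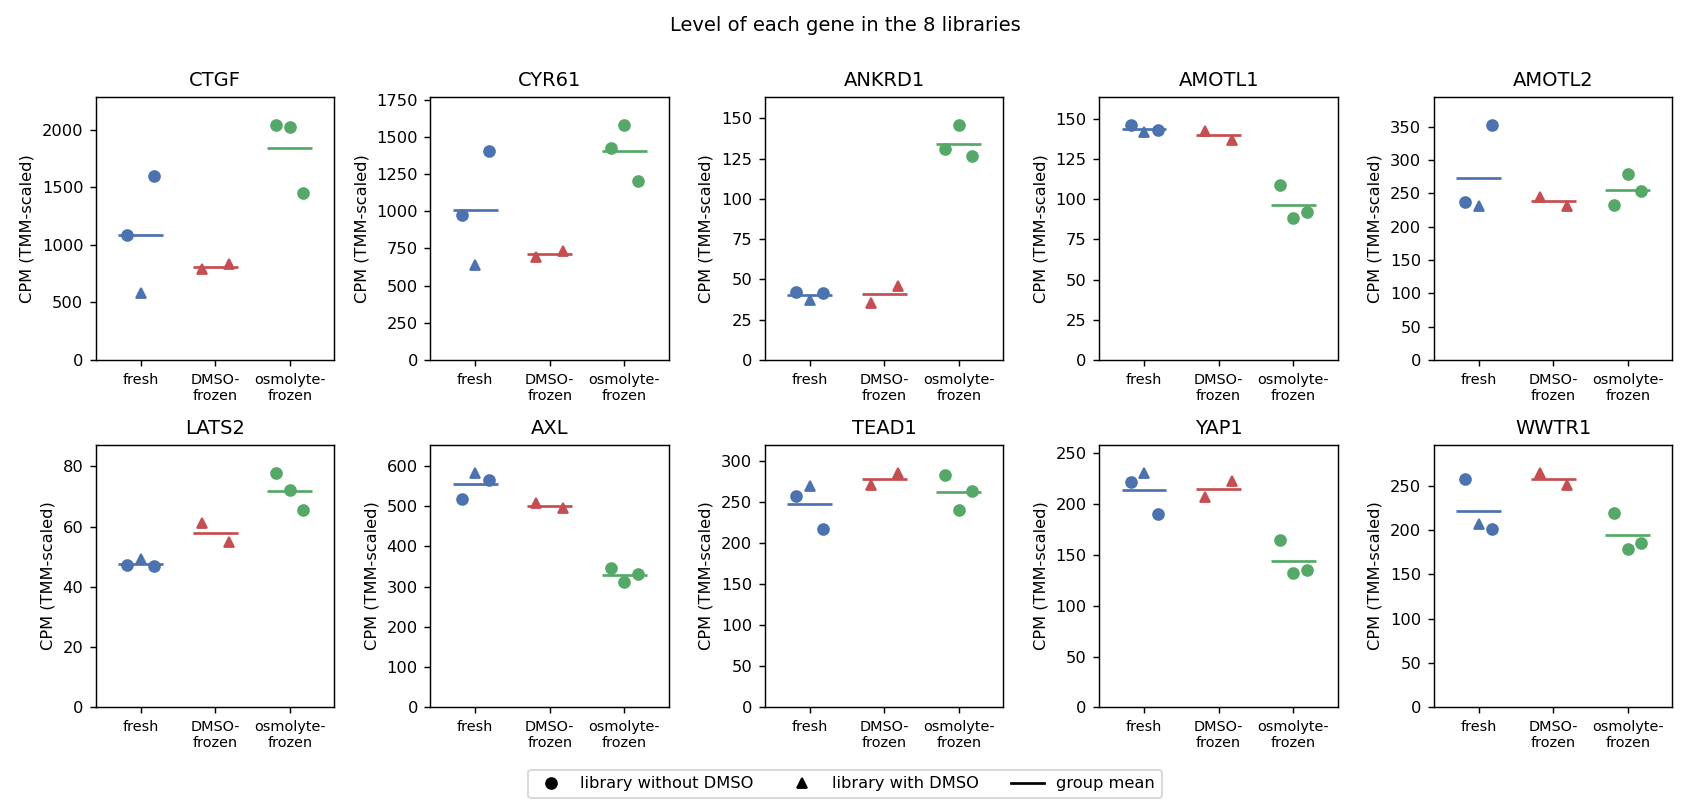
Level of each of the 10 genes in each of the 8 libraries, in CPM, the normalised count at an equal library size, on axes that start at 0; circles are libraries without DMSO, triangles libraries with DMSO, and bars group means. ANKRD1 lies between 126.6 and 145.7 CPM in the osmolyte-frozen libraries and between 35.45 and 46.1 in the other 5, while CTGF stays at or below 832.3 CPM in the 3 libraries with DMSO and at or above 1088 in the 5 without.

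In each comparison that called any of the 10 genes, some were higher and some lower. Between osmolyte-frozen and DMSO-frozen libraries, 6 of the 10 passed edgeR's quasi-likelihood test at an adjusted p under 0.05, with 2 higher (ANKRD1 and LATS2) and 4 lower (AXL, AMOTL1, YAP1 and WWTR1), where 30.1% of all 15564 genes tested passed, 13.6% higher and 16.5% lower. These were 2121 higher and 2563 lower genes, which became 2571 and 1985 with library totals alone as scaling, where the 10 genes kept their directions and calls. The libraries of the groups did not overlap for 8 of the 10 genes, 4 higher and 4 lower, against 56.8% of all genes. Between osmolyte-frozen and fresh libraries, 5 of the 10 passed, with ANKRD1 and LATS2 higher and AXL, AMOTL1 and YAP1 lower, where 40.1% of all genes passed (19.1% higher, 21% lower). The same 5 genes were those whose groups did not overlap, against 49.6% of all genes. Both comparisons use the same osmolyte-frozen libraries. Thus 60% and 50% of these 10 genes passed, beside 30.1% and 40.1% of all genes. No test of these shares was made, because the genes were chosen by hand with earlier results of these data known. The median log2 change of the 10 genes was 0.01 against 0.04 for all genes in the first comparison and -0.01 against 0.02 in the second.

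Between DMSO-frozen and fresh libraries, 0 of the 10 genes passed edgeR's test, where 1.87% of all genes passed (1.25% higher, 0.617% lower). DESeq2 and limma-voom also called 0 of the 10, and 1 of them, LATS2, had an unadjusted p under 0.05. The libraries did not overlap for 3 of the 10 genes (LATS2 and TEAD1 higher, AXL lower), against 31.4% of all genes. The median log2 change was -0.02 for the 10 genes and -0.01 for all genes. The smallest adjusted p among the 10, for LATS2, was 0.131 by edgeR, and that for AXL was 0.471.

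For DMSO against no DMSO, fitted over all 8 libraries with fresh or frozen state as a second term, 5 of the 10 genes passed edgeR's test, where 16.2% of all genes passed (9.33% higher, 6.91% lower). CTGF and CYR61 were lower with DMSO, and AXL, YAP1 and AMOTL1 were higher. Only CTGF and CYR61 did not overlap between the 3 libraries with DMSO and the 5 without, against 10.9% of all genes. Within frozen cells, DMSO against none sets the DMSO-frozen against the osmolyte-frozen libraries, so it shares its libraries with the first comparison.

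**Figure D2:**
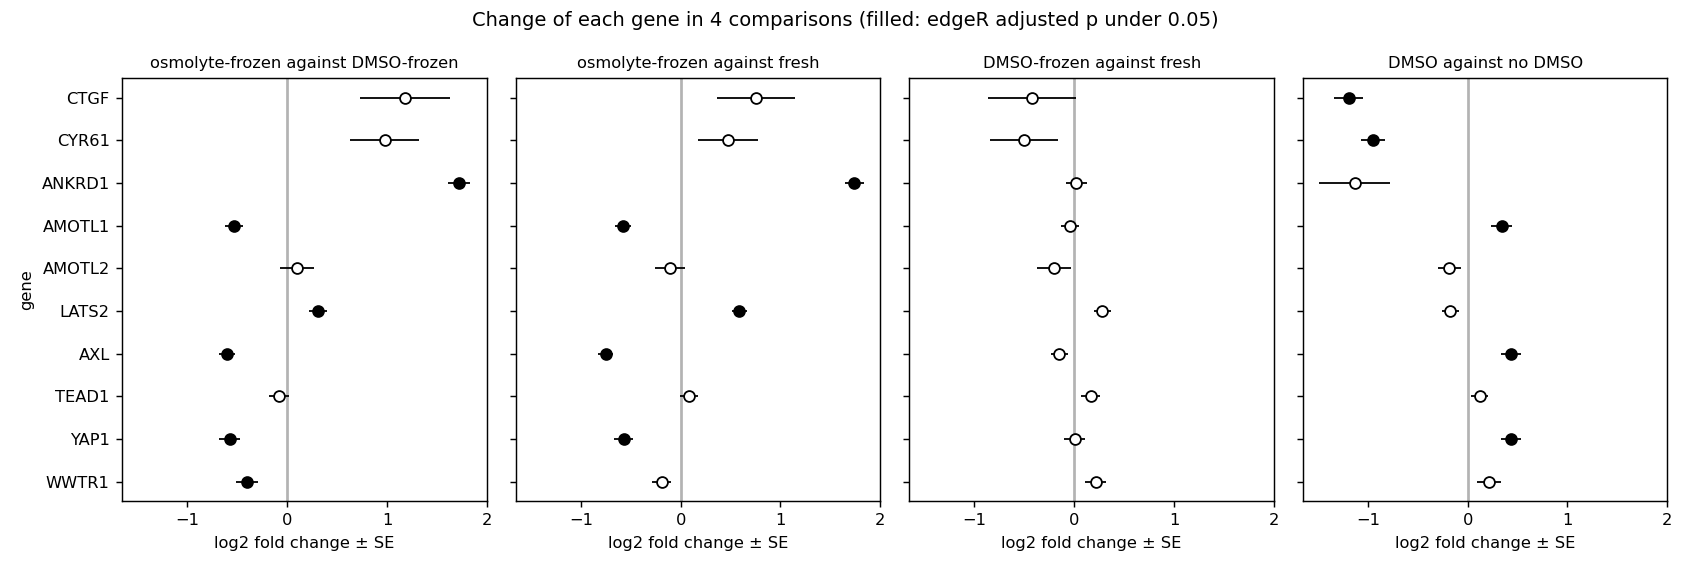
Log2 fold change (point) and standard error (bar) of each of the 10 genes in the 4 comparisons fitted with edgeR; filled points have an adjusted p under 0.05. In osmolyte-frozen against DMSO-frozen cells ANKRD1 lies at 1.72 and AXL at -0.60, in DMSO-frozen against fresh cells no point is filled, and with DMSO CTGF lies at -1.19 and CYR61 at -0.95.

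CTGF and CYR61, secreted matricellular proteins of the CCN family and the most used read-outs of YAP activity, were lower wherever DMSO was present. CTGF was 1088 CPM in fresh cells at 0 h, 1602 after 1 h in medium and 578 after 1 h with DMSO. It was 832 CPM in the frozen 0 h DMSO and 788.5 in the frozen 1 h DMSO library, and 2038, 2023 and 1450 in the SMC, SGC and SGI libraries. Every library with DMSO was thus below every library without it, fresh or frozen. CYR61 was 977 CPM in the fresh 0 h, 1406 in the fresh 1 h medium and 638 in the fresh 1 h DMSO library. In frozen cells CYR61 was 734 CPM (0 h DMSO), 692 (1 h DMSO), 1424 (SMC), 1578 (SGC) and 1206 (SGI). The order of the groups was that of CTGF, again without overlap between libraries with and without DMSO.

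With DMSO, CTGF averaged 733 ± 136 CPM (SD, n = 3) against 1640 ± 402 (SD, n = 5) without, and its log2 change was -1.19 (SE 0.141, 2.29-fold lower, edgeR adjusted p = 0.00233). CYR61 averaged 688 ± 48.0 CPM (SD, n = 3) against 1318 ± 232 (SD, n = 5), a log2 change of -0.95 (SE 0.118, 1.93-fold lower, edgeR adjusted p = 0.00161). Both calls held when any 1 of the 8 libraries was left out. The number of all genes called was 2527 and was less stable: it was 25 without the frozen 1 h DMSO library, 17 without the frozen 0 h DMSO library, 875 without SGC, 691 without SGI and 4648 without the fresh 1 h DMSO library. In a fit with a separate DMSO term for each state, the log2 change of CTGF was -1.18 (SE 0.210) in frozen and -1.22 (SE 0.287) in fresh cells, and that of CYR61 was -0.98 (SE 0.154) and -0.90 (SE 0.209). The within-frozen values passed edgeR's test (adjusted p = 0.00562 for CTGF and 0.00093 for CYR61). The within-fresh ones, which rest on 1 library with DMSO, had adjusted p-values of 0.994 and 0.822. The difference between the states was 0.04 (SE 0.338) for CTGF and -0.08 (SE 0.250) for CYR61 on the log2 scale and did not pass edgeR's test (adjusted p = 0.975 and 0.924).

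Between the frozen groups, CTGF was 1837 ± 335 CPM in osmolyte-frozen (SD, n = 3) against 810 ± 31.0 in DMSO-frozen cells (SD, n = 2), and CYR61 1403 ± 187 against 713 ± 29.7. The groups did not overlap for either gene, yet neither passed edgeR's test in the fit of 3 groups (log2 change 1.18, SE 0.454, adjusted p = 0.115 for CTGF and 0.98, SE 0.346, adjusted p = 0.0931 for CYR61). In that fit the fresh group pools libraries with and without DMSO, and its SD was 512 CPM for CTGF and 385 for CYR61. With the fresh 1 h DMSO library left out, the adjusted p was 0.00563 for CTGF and 0.000866 for CYR61. CYR61 also passed without the fresh 1 h medium library (adjusted p = 0.0148, edgeR). Both passed by DESeq2 (adjusted p = 0.021 and 0.0172), by limma-voom (0.00703 and 0.00473), and by edgeR without robust estimation or with the 5 frozen libraries alone (1.31e-05 and 2.45e-07). Over 16 alternatives the adjusted p ran from 1.31e-05 to 0.317 for CTGF, which passed in 5, and from 2.45e-07 to 0.273 for CYR61, which passed in 6.

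Between single libraries, which allow no test, CTGF and CYR61 gave the only folds of 2 or more among the 10 genes in the 8 pairs compared. CTGF was 2.77-fold and CYR61 2.20-fold lower in fresh cells after 1 h with DMSO than after 1 h in medium, where 1.02% of all genes were at least 2-fold apart. Against cells at 0 h, the fold in fresh 1 h DMSO was 1.88 lower for CTGF and 1.53 lower for CYR61, and that in fresh 1 h medium was 1.47 and 1.44 higher. The time in medium thus went with higher levels of both genes and the time in DMSO with lower ones, in 1 library each. In DMSO, the frozen 1 h library was 1.36-fold higher for CTGF than the fresh 1 h library.

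CTGF and CYR61 shared 3 of the 5 genes whose log2 levels followed each most closely (C11orf74, ECE2 and SGK1). Over the 8 libraries, among 10700 genes with a mean of at least 5 CPM, the 5 with the highest Pearson r to CYR61 outside the 10 genes were C11orf74 (0.993), ECE2 (0.992), RPS3 (0.987), GADD45A (0.976) and SGK1 (0.975). For CTGF they were C11orf74 (0.988), SGK1 (0.980), IER3 (0.972), ECE2 (0.967) and KLC4 (0.964). CTGF and CYR61 themselves had an r of 0.982. These values describe likeness across 8 libraries that share their depth and composition between genes, and they carry no test. C11orf74 ranged only from 9.87 to 13.57 CPM, whereas SGK1, a kinase regulated by serum and cell volume, ranged from 55.4 to 151.7 and IER3, a rapid response gene, from 155.4 to 408.6. Among the CCN family, 5 of the 6 genes were tested, and with DMSO only CTGF and CYR61 passed, where 16.2% of all genes did.

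Some immediate early genes, which like CTGF and CYR61 are transcribed within minutes of a stimulus, were also lower with DMSO. Of 20 such genes, 9 were lower, 0 higher and 11 not called by edgeR, where 6.91% of all genes were lower, and their median log2 change was -1.33 against -0.03 for all genes. FOS (adjusted p = 0.139) and EGR1 (adjusted p = 0.214) were among those that did not pass edgeR's test, and their libraries with and without DMSO overlapped. NR4A1, a nuclear receptor, had the largest fall among those that passed without overlap, at 5.999 ± 1.551 CPM with DMSO (SD, n = 3) and 45.2 ± 40.0 without (SD, n = 5; 5.31-fold lower, edgeR adjusted p = 0.049). JUNB, an AP-1 subunit, was 50.5 ± 6.82 CPM with DMSO (SD, n = 3) and 139 ± 45.6 without (SD, n = 5; 2.64-fold lower, edgeR adjusted p = 0.0114). DUSP1, a phosphatase that restrains MAP kinases, was 61.8 ± 6.54 and 278 ± 110 CPM (4.49-fold lower, edgeR adjusted p = 0.0315). The call of JUNB was lost when either DMSO-frozen library was left out, and that of DUSP1 also without the SGC, SGI or fresh 1 h DMSO library. The call of NR4A1 was lost without any 1 library other than SMC and with no filter on low counts. In osmolyte-frozen against DMSO-frozen cells the median log2 change of the list was 0.92. Only 2 of the 20 passed edgeR's test, both higher, where 13.6% of all genes were higher. In osmolyte-frozen against fresh cells the list went the other way from CTGF and CYR61, with a median of -0.55. There 1 of the 20 was higher and 2 lower, where 19.1% of all genes were higher and 21% lower. CTGF changed by 0.75 and CYR61 by 0.48 on the log2 scale, and neither passed edgeR's test (adjusted p = 0.193 and 0.269).

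In the promoter, CTGF carries known TEAD sites, and its window is shown with that of ANKRD1 because these had the largest changes of the 10 genes in the DMSO and osmolyte comparisons. The sequences are the 250 bases before the annotated start in RefSeq (GRCh38.p14), written 5′ to 3′ on the strand of the gene, which is the minus strand for both, at chr6:131951373-131951622 for CTGF and chr10:90921088-90921337 for ANKRD1. Capitals mark the TEAD motif GGAATG, and its reverse complement CATTCC was searched as well.
CTGF: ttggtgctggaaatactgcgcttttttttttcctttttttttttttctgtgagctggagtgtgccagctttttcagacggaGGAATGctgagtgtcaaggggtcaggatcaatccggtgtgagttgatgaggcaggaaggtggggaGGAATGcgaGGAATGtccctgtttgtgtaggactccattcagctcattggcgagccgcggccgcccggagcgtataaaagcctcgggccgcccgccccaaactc
ANKRD1: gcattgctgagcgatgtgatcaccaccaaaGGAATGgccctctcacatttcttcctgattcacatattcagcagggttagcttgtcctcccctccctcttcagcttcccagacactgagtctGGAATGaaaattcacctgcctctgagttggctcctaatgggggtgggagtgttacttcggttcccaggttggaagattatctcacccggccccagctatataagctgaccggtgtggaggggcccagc

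CTGF held 3 copies of the motif, which began 169, 104 and 95 bases before the start, and ANKRD1 held 2, at 220 and 128 bases. Of all 35116 promoter windows in the table, 11.9% held at least 1 copy, 0.94% at least 2 and 0.0826% at least 3. Of the 10 genes, 8 matched a promoter entry by symbol (not CYR61 and TEAD1), and 5 of them held the motif in a window. Beside CTGF and ANKRD1, these were AMOTL2 (1 copy at 69 bases, in 1 of 2 windows), AXL (1 copy at 212 bases, in 1 of 2 windows) and YAP1 (1 copy at 162 bases). The windows of AMOTL1, LATS2 and WWTR1 did not contain these letters. These genes were counted by gene, some with 2 windows, whereas the shares of all promoters are by window, so the 2 are not directly comparable. The CArG box, the binding motif of SRF, was in 0 of the 8 genes' windows and in 1.16% of all windows, and so overlapped no TEAD motif here. A match describes the letters of the window, and no binding was measured.

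ANKRD1, a nuclear ankyrin repeat protein of muscle and stretched cells and a direct YAP target, was higher in osmolyte-frozen cells alone. In fresh cells it was 42.01 CPM at 0 h, 41.28 after 1 h in medium and 37.29 after 1 h with DMSO, and it was 46.1 and 35.45 in cells frozen in DMSO for 0 h and 1 h. It was 130.7 CPM in SMC, 145.7 in SGC and 126.6 in SGI cells. The osmolyte-frozen libraries were thus far above the other 5, which overlapped among themselves. ANKRD1 averaged 134 ± 10.0 CPM (SD, n = 3) against 40.8 ± 7.53 in DMSO-frozen cells (SD, n = 2), 3.29-fold higher (log2 change 1.72, SE 0.109, edgeR adjusted p = 1.2e-08). Against fresh cells at 40.2 ± 2.54 CPM (SD, n = 3) it was 3.34-fold higher (log2 change 1.74, SE 0.095, edgeR adjusted p = 2.71e-10). DMSO-frozen and fresh cells differed by 0.02 on the log2 scale (SE 0.104, edgeR adjusted p = 0.955), and this sign changed when library totals alone were used for scaling, or when the fresh 1 h DMSO or the frozen 0 h DMSO library was left out.

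ANKRD1 differed from CTGF and CYR61 in how it varied with DMSO. The log2 change with DMSO was -1.72 (SE 0.109) within frozen and -0.16 (SE 0.141) within fresh cells. The difference of these changes was -1.56 (SE 0.172) and passed edgeR's test (adjusted p = 3.89e-05), as 2.81% of all genes did. For the other 9 genes that difference did not pass; the nearest were AMOTL1 at 0.56 (SE 0.157, adjusted p = 0.0594) and AXL at 0.50 (SE 0.144, adjusted p = 0.0698, edgeR). In the additive fit of DMSO over both states ANKRD1 had a log2 change of -1.13 (SE 0.356, edgeR adjusted p = 0.0931). The fresh side of these values rests on 1 library with DMSO and 2 without.

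Markers of muscle were measured beside ANKRD1, since muscle expresses it strongly. The 5 markers summed to 5.31 to 5.68 CPM in the osmolyte-frozen libraries, 0.789 to 0.874 in the DMSO-frozen and 0.364 to 0.716 in the fresh. TNNT2, cardiac troponin T, made most of that sum in the osmolyte-frozen libraries, at 4.44 to 4.96 CPM, and was at most 0.481 CPM in the others. NKX2-5 was 0.625 to 0.930 CPM in the osmolyte-frozen libraries and 0.227 to 0.447 in the others, MYOG reached 0.0979 CPM in SMC and was at 0 elsewhere, MYOD1 was at 0 in every library but fresh 1 h DMSO, and MYH6 in every library but fresh 1 h medium. The part of such RNA in the ANKRD1 value was not tested.

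Genes with levels most like ANKRD1 over the 8 libraries were STK32B (r = 0.991), HAGH (0.989), HOXB3 (0.989), ALPK2 (0.987) and ADM2 (0.986), given as a description over 10700 genes. ADM2, a secreted peptide of the calcitonin family, was 14.7 to 18.8 CPM in the osmolyte-frozen and 3.28 to 3.54 in the other libraries. None of the 5 was shared with CTGF or CYR61. Against ANKRD1, AXL had an r of -0.977 and AMOTL1 one of -0.960 over the 8 libraries.

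Cytoskeletal genes driven by SRF and its cofactors MRTF, which respond to actin assembly as YAP targets do, were mostly higher in the same libraries as ANKRD1. Of 20 genes, 13 were higher and 1 lower in osmolyte-frozen than in DMSO-frozen cells, where 13.6% of all genes were higher and 16.5% lower. Their median log2 change was 0.45 against 0.04 for all genes. ACTG2, the enteric smooth muscle actin, gave the largest change, at 313.5 ± 34.5 CPM against 118 ± 0.561 (SD, n = 3 and 2; 2.65-fold, edgeR adjusted p = 9.34e-08). ACTA2, smooth muscle actin, was 156 ± 13.5 CPM against 59.5 ± 0.484 (SD, n = 3 and 2; 2.63-fold, edgeR adjusted p = 5.15e-09). CNN1, a calponin, was 109 ± 6.21 against 50.9 ± 3.26 CPM (2.14-fold, edgeR adjusted p = 8.21e-08). VCL, vinculin, was the 1 gene that was lower, at 595.5 ± 18.2 against 723 ± 0.790 CPM (1.21-fold, edgeR adjusted p = 0.0141), a call lost without either DMSO-frozen library. ACTA2 overlaps FAS, at 14.3 to 21.2 CPM, in the deposited coordinates, and ACTA2 and ACTG2 are near-identical to each other and to other actins, so their levels are uncertain. DMSO-frozen cells were also above fresh cells for 4 of the 20, where 1.25% of all genes were higher. CNN1 was among them at 1.35-fold (edgeR adjusted p = 0.00701, lost without the frozen 1 h DMSO library), where ANKRD1 gave 1.02-fold.

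**Figure D3:**
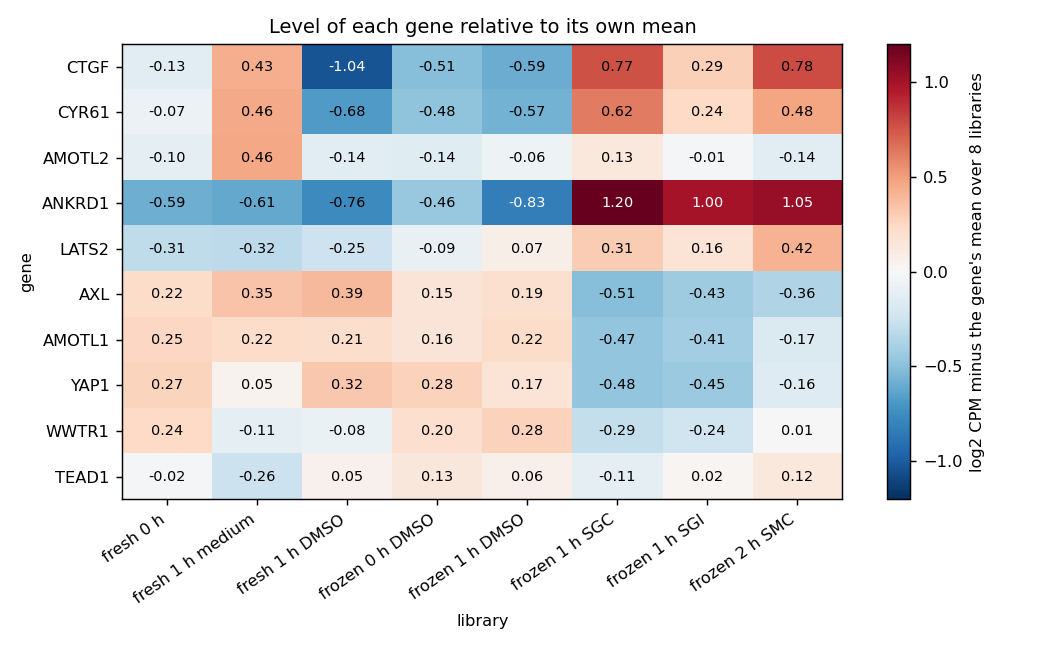
Log2 CPM of each of the 10 genes in each library minus that gene's mean over the 8 libraries; red is above and blue below the mean, with the value in each cell. CTGF and CYR61 are below their mean in the 3 libraries with DMSO and in fresh 0 h, ANKRD1 is above it only in the SGC, SGI and SMC libraries (by 1.00 or more), and AXL, AMOTL1 and YAP1 are below it only there.

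LATS2, AMOTL1 and AMOTL2 encode brakes on YAP1, and they went separate ways. LATS2, the kinase that phosphorylates YAP1 and is itself a YAP target, was 47.2, 46.8 and 49.2 CPM in the fresh 0 h, 1 h medium and 1 h DMSO libraries. It was 54.7 and 61.3 CPM in cells frozen in DMSO for 0 h and 1 h, and 77.85, 72.25 and 65.36 in SMC, SGC and SGI. The 3 groups did not overlap, with fresh lowest and osmolyte-frozen highest. LATS2 was 71.8 ± 6.26 CPM in osmolyte-frozen (SD, n = 3) against 58.0 ± 4.66 in DMSO-frozen cells (SD, n = 2; 1.24-fold, edgeR adjusted p = 0.0137), a call lost without the frozen 0 h DMSO library (adjusted p = 0.188, with 0.00313 the lowest of 16 alternatives). Against fresh cells at 47.7 ± 1.26 CPM it was 1.5-fold higher (log2 change 0.59, SE 0.079, edgeR adjusted p = 1.21e-05). DMSO-frozen against fresh cells gave 1.22-fold (log2 change 0.28, SE 0.088), which did not pass edgeR's test (adjusted p = 0.131).

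AMOTL1, an angiomotin that tethers YAP1 at cell junctions and actin, was 141.9 to 146 CPM in the fresh and 136.9 and 142.7 in the DMSO-frozen libraries. It was 108.9 CPM in SMC, 88.4 in SGC and 92.2 in SGI cells, below every other library. Its mean of 96.5 ± 10.9 CPM (SD, n = 3) was 1.45-fold lower than in DMSO-frozen cells at 140 ± 4.12 (SD, n = 2; log2 change -0.54, SE 0.088, edgeR adjusted p = 0.000218) and 1.49-fold lower than in fresh cells at 144 ± 2.10 (edgeR adjusted p = 1.74e-05). Its higher level with DMSO (log2 change 0.34, edgeR adjusted p = 0.0398) overlapped between libraries and was lost without any 1 of the 5 frozen libraries. Within fresh cells the value was -0.03 (SE 0.125, edgeR adjusted p = 0.995).

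AMOTL2, the related angiomotin that is also a YAP target, passed in none of the 4 comparisons. It was 352 CPM in fresh 1 h medium and lay between 231 and 278 in the other 7 libraries. In the fresh pair it was 1.48-fold higher in 1 h medium than at 0 h, the largest fold of the 10 genes there. In that pair 0 of the 10 genes were at least 2-fold apart, as 0.694% of all genes were. AMOTL2 was 1.52-fold lower in fresh 1 h DMSO than in fresh 1 h medium. CTGF, CYR61 and AMOTL2 were thus all highest among the fresh libraries in 1 h medium. TEAD1 was lowest of all 8 in that library, and AMOTL2 and TEAD1 had an r of -0.942 over the 8 libraries.

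Of 30 Hippo kinases, adaptors and upstream inhibitors, which include these 3 genes, 5 were higher and 12 lower in osmolyte-frozen than in DMSO-frozen cells by edgeR. Of all genes, 13.6% were higher and 16.5% lower there. The median log2 change of the list was -0.22 against 0.04 for all genes. PTPN14, a phosphatase that binds YAP1 and is a YAP target as well, was 271 ± 34.9 against 443 ± 8.08 CPM (SD, n = 3 and 2; 1.64-fold lower, edgeR adjusted p = 0.000801). AMOT, the founding angiomotin, was 30.7 ± 3.19 against 48.9 ± 0.172 CPM (1.59-fold lower, edgeR adjusted p = 8.56e-05). Among the higher genes, WTIP, a LIM protein of the Ajuba family, was 20.5 ± 1.75 against 14.9 ± 1.41 CPM (1.38-fold, edgeR adjusted p = 0.00502), a call lost without the frozen 0 h DMSO library. AJUBA, a LIM protein that inhibits LATS kinases, was 141 ± 12.8 against 109 ± 0.651 CPM (1.29-fold, edgeR adjusted p = 0.00412). The list thus held both brakes and their inhibitors among the genes that passed. LATS1, the partner kinase of LATS2, moved the other way, with a log2 change of -0.55 (edgeR adjusted p = 0.0105). FAT4, an atypical cadherin upstream of the pathway, had the lowest value of the list at -0.82 (edgeR adjusted p = 0.0113), which was lost without either DMSO-frozen library, and DCHS1, its ligand, was 1.27-fold higher (edgeR adjusted p = 0.0363), lost without the frozen 0 h DMSO or any osmolyte-frozen library. Against fresh cells 5 of the 30 were higher and 10 lower, where 19.1% of all genes were higher and 21% lower. DCHS1 was 2.13-fold higher there (edgeR adjusted p = 1.21e-06). In DMSO-frozen against fresh cells DCHS1 was the only 1 of the 30 to pass, where 1.87% of all genes did. It was 1.67-fold higher (edgeR adjusted p = 0.00251), a call lost without the frozen 1 h DMSO library.

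AXL, a receptor tyrosine kinase of the TAM family and a YAP target, was lower in osmolyte-frozen cells. It was 517, 564 and 583 CPM in the fresh 0 h, 1 h medium and 1 h DMSO libraries, 494 and 507 in cells frozen in DMSO for 0 h and 1 h, and 346, 311 and 330 in SMC, SGC and SGI. The 3 osmolyte-frozen libraries lay below the other 5. Its mean of 329 ± 17.4 CPM (SD, n = 3) was 1.52-fold below DMSO-frozen cells at 501 ± 8.95 (SD, n = 2; log2 change -0.60, SE 0.081, edgeR adjusted p = 3.12e-05) and 1.69-fold below fresh cells at 555 ± 33.8 (log2 change -0.75, SE 0.074, edgeR adjusted p = 2.83e-07). With DMSO it was 1.35-fold higher in the fit of both states (edgeR adjusted p = 0.0114). The libraries overlapped, and the call was lost without either DMSO-frozen library. Its log2 change with DMSO was 0.60 (SE 0.084) within frozen cells, where the libraries are those of the first comparison. Within fresh cells, where the 1 h DMSO library stands alone, it was 0.11.

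GAS6, the secreted ligand of AXL, went the other way. It was 384 to 425 CPM in the osmolyte-frozen libraries, 194 and 222 in the DMSO-frozen and 166 to 190 in the fresh, without overlap between the 3 groups. GAS6 averaged 407 ± 20.8 CPM (SD, n = 3) against 208 ± 20.1 in DMSO-frozen cells (SD, n = 2), 1.95-fold higher (log2 change 0.97, SE 0.091, edgeR adjusted p = 6.01e-07). GAS6 overlaps the entry FLJ41484, at 3.54 to 8.83 CPM, in the deposited coordinates, and the strand setting of the counts is not given in the sources used here. Of the 5 receptors and ligands of the family, 1 was higher (GAS6) and 3 lower (AXL, PROS1 and TYRO3) in this comparison. Of all genes, 13.6% were higher and 16.5% lower there. TYRO3 at 9.94 ± 0.0698 against 12.4 ± 0.142 CPM and PROS1 at 11.1 ± 1.23 against 15.0 ± 0.122 were far lower in CPM than AXL. Both lost their calls without SGI or either DMSO-frozen library, and TYRO3 also without SGC or with library totals as scaling.

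YAP1, the coactivator itself, was lower in osmolyte-frozen cells, while its target ANKRD1 was higher there. YAP1 was 222, 190 and 231 CPM in the fresh 0 h, 1 h medium and 1 h DMSO libraries, 223 and 207 in cells frozen in DMSO for 0 h and 1 h, and 165, 132 and 135 in SMC, SGC and SGI. The osmolyte-frozen libraries lay below the other 5. The mean of 144 ± 18.03 CPM (SD, n = 3) was 1.49-fold below DMSO-frozen cells at 215 ± 11.5 (SD, n = 2; log2 change -0.58, SE 0.103, edgeR adjusted p = 0.000514) and 1.49-fold below fresh cells at 214 ± 21.4 (log2 change -0.57, SE 0.093, edgeR adjusted p = 0.000114). With DMSO it was 1.35-fold higher in the fit of both states (edgeR adjusted p = 0.0143), which was lost without SGI or either DMSO-frozen library. Its log2 change with DMSO was 0.58 (SE 0.101) within frozen cells. Within fresh cells, where the 1 h DMSO library stands alone, it was 0.16.

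WWTR1, which encodes the paralogue TAZ, was lower only against DMSO-frozen cells. It was 258, 202 and 206 CPM in the fresh 0 h, 1 h medium and 1 h DMSO libraries, 251 and 264.5 in cells frozen in DMSO for 0 h and 1 h, and 220, 179 and 185 in SMC, SGC and SGI. The osmolyte-frozen libraries lay below both DMSO-frozen ones and overlapped the fresh ones. At 194 ± 22.1 CPM (SD, n = 3) it was 1.33-fold below DMSO-frozen cells at 257.5 ± 9.87 (SD, n = 2; log2 change -0.41, SE 0.109, edgeR adjusted p = 0.01), a call lost without the frozen 1 h DMSO (adjusted p = 0.087) or the frozen 0 h DMSO library (adjusted p = 0.0543), and the lowest over 16 alternatives was 0.00121. Against fresh cells its log2 change was -0.19 (edgeR adjusted p = 0.132), and it passed only without SMC (adjusted p = 0.0299, the lowest of 15 alternatives that reached 0.484). Its antisense entry WWTR1-AS1, at 0.35 to 1.31 CPM, cannot be separated from it without a strand setting.

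TEAD1, the DNA-binding partner of both coactivators, passed in none of the 4 comparisons and lay between 217 and 286 CPM in all 8 libraries. Its log2 change was -0.08 (SE 0.096) in osmolyte-frozen against DMSO-frozen and 0.08 (SE 0.086) against fresh cells. TEAD4 also passed in none of the 4, while TEAD2 and TEAD3 did pass. Of the 8 partners tested of 10 listed, 2 were higher and 3 lower in osmolyte-frozen than in DMSO-frozen cells, with YAP1 and WWTR1 among the lower. Of all genes, 13.6% were higher and 16.5% lower there. TEAD3 was 78.7 ± 1.957 against 54.3 ± 5.68 CPM (SD, n = 3 and 2; 1.45-fold, edgeR adjusted p = 0.000224) and 1.69-fold above fresh cells (edgeR adjusted p = 6.01e-07). TEAD2 was 1.22-fold higher (edgeR adjusted p = 0.0101), which was lost without the frozen 0 h DMSO library, and it overlaps CD37, at 2.55 to 9.01 CPM. VGLL4, which competes with YAP1 for TEAD, was 53.9 ± 2.14 against 74.8 ± 3.12 CPM (1.39-fold lower, edgeR adjusted p = 0.00268) and overlaps ATG7, at 20.9 to 32 CPM.

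Other YAP and TAZ target genes passed in both directions in each comparison that called any of them. Of 15 genes of the target signature tested beside the 10 genes here, 1 was higher and 5 lower in osmolyte-frozen than in DMSO-frozen cells. Of all genes, 13.6% were higher and 16.5% lower there. The median log2 change of the 15 was 0.01 against 0.04 for all genes. IGFBP3, a secreted binder of insulin-like growth factors, was the 1 that was higher, at 1201 ± 85.0 against 842 ± 17.1 CPM (SD, n = 3 and 2; 1.43-fold, edgeR adjusted p = 0.000439). MYOF, a membrane repair protein, was 461 ± 16.3 against 666 ± 12.7 CPM (1.44-fold lower, edgeR adjusted p = 6.25e-05), and NT5E, which is also a stromal marker, was 166 ± 9.16 against 257 ± 0.127 CPM (1.55-fold lower, edgeR adjusted p = 3.08e-05). Against fresh cells 4 were higher and 4 lower, where 19.1% of all genes were higher and 21% lower. In DMSO-frozen against fresh cells 0 of the 15 passed, where 1.87% of all genes did. With DMSO 4 were higher and 2 lower, where 9.33% of all genes were higher and 6.91% lower. GADD45A, a stress-induced growth arrest gene, was 57.9 to 66.1 CPM in the libraries with DMSO and 74.9 to 161 in those without (log2 change -1.13, SE 0.245, edgeR adjusted p = 0.0309), a call that was lost without the fresh 1 h DMSO library, without any 1 of the 5 frozen libraries and with no filter on low counts.

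The summed stromal markers and the share of MALAT1 and NEAT1 moved with the osmolyte-frozen group, as did AMOTL1, AXL, YAP1, ANKRD1 and LATS2. The stromal markers summed to at most 1697 CPM there and to at least 2250 elsewhere, although 1 of the 6, THY1, went the other way, at 261.1 to 299.8 CPM there and 226.9 to 258.8 elsewhere, and the nuclear RNAs at least 0.846% there and at most 0.567% elsewhere. Their part in the values of these genes was not tested.

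**Figure D4:**
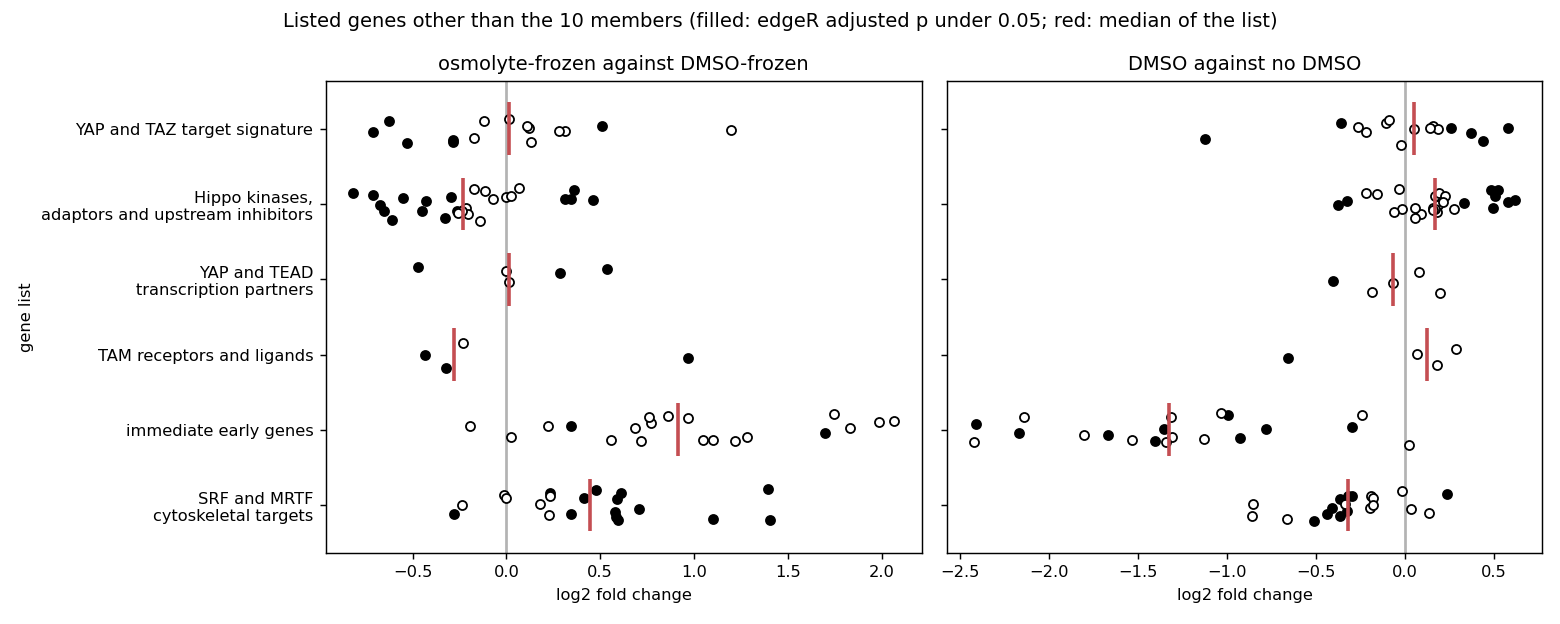
Log2 fold change of the listed genes other than the 10 described, in osmolyte-frozen against DMSO-frozen cells (left) and with DMSO against without (right); each point is a gene, filled where the edgeR adjusted p is under 0.05, and the red bar is the median of the list. The medians of immediate early genes lie at 0.92 and -1.33, those of SRF and MRTF targets at 0.45 and -0.32, and those of the YAP and TAZ target signature at 0.01 and 0.05.

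Among the osmolyte solutions, none of the 10 genes was 2-fold apart between any pair of libraries, where 0.777% (SMC against SGC), 0.97% (SMC against SGI) and 0.437% (SGC against SGI) of all genes were. The largest folds were 1.41 for CTGF between SMC and SGI and 1.40 for CTGF between SGC and SGI. YAP1 gave the largest fold between SMC and SGC, at 1.25. AMOTL1, YAP1 and WWTR1 were higher in SMC than in SGC and SGI, and so lay nearest to the DMSO-frozen and fresh levels there. SMC was held for 2 h and the others for 1 h, so the solution and the time cannot be told apart, and with 1 library each no test was possible.

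Holding time in frozen DMSO cells gave small differences. Between the 1 h and the 0 h library the largest fold among the 10 genes was 1.30, for ANKRD1, which was lower at 1 h, and 0 of the 10 were 2-fold apart, as 0.328% of all genes were. Frozen against fresh cells, both after 1 h with DMSO, gave at most 1.36-fold among the 10 genes (CTGF). Thus 0 of the 10 were at least 2-fold apart there, as 0.835% of all genes were. LATS2 at 1.25-fold and WWTR1 at 1.28-fold were higher in the frozen library of that pair. In fresh 1 h DMSO against fresh 0 h, 0 of the 10 were 2-fold apart (0.598% of all genes).

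In the deposited coordinates (hg19), CTGF lies at chr6:132269317-132272518, CYR61 at chr1:86046444-86049648, ANKRD1 at chr10:92671857-92681032, LATS2 at chr13:21547176-21635722 and AXL at chr19:41725108-41767671. AMOTL1 (chr11:94501508-94609918), YAP1 (chr11:101981192-102104154) and TEAD1 (chr11:12695969-12966284) share chromosome 11. AMOTL2 (chr3:134074190-134093406) and WWTR1 (chr3:149235022-149421060) share chromosome 3. Of the 10, only WWTR1 overlapped another entry of the table.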

How the data were processed

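RNA of 8 libraries was isolated with the miRNeasy kit and made into libraries by Illumina protocols, per the labels' protocols. CASAVA 1.9, TopHat (version given as 12.0.6), HTSeq and the build hg19 are named in the submitters' processing notes. The sources used here name no annotation release or strand setting. The authors deposited 1 count and 1 RPKM value per gene and library in a single table. The counts were used as deposited, all of them even (0 odd values), with no stated reason, so Poisson intervals treat each counted unit as entered as 2. The RPKM values that the authors deposited were taken with the length labelled as coding length, and served only to recover the library total behind them. The counts make 64 to 66.9% of that total in the osmolyte-frozen, 72.1 to 73% in the DMSO-frozen and 66.2 to 70.4% in the fresh libraries. Of 23398 entries, 49 identifiers were repeated: 41 had identical counts and entered once, 8 had different counts and stayed apart, giving 23354 genes. Rows naming no gene and columns of other samples numbered 0.

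Tests used edgeR 4.0.16 (R 4.3.3): filterByExpr by state (15564 genes kept), TMM scaling (trimmed mean of M-values), glmQLFit with robust estimation, glmQLFTest and Benjamini-Hochberg adjustment over all genes tested at 0.05. The 3 groups (3 fresh, 2 DMSO-frozen, 3 osmolyte-frozen libraries) were fitted together with 5 residual degrees of freedom, DMSO with state in an additive fit with 5, and their interaction with 4. SE is the absolute log2 change divided by the square root of F. CPM is TMM-scaled. Pairs of single libraries are given as log2 ratios of CPM (prior count 2), and genes were counted as 2-fold apart where the higher library held 50 or more counts. No library repeated another (chi-square per degree of freedom between pairs 6.84 to 78.1). Scripts were tested on simulated data. Alternatives were other scalings, no filter, DESeq2 1.42.0, limma-voom (limma 3.58.1), halved counts, no robust estimation and each library left out.

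The 10 genes and the gene lists were chosen with earlier results of these data known, so their directions are not independent evidence. Beside the 10, the genes named were taken, though not all are printed, from those that a rule gave for each list and comparison. The rule took up to 3 genes with the largest rise and 3 with the largest fall. These had to be past the threshold, without overlap and with at least 5 CPM on the higher side. LATS1, FOS, EGR1 and TEAD4 were named after their values were seen. Promoter windows and symbols were taken from RefSeq (GRCh38.p14), and no coordinates were converted between builds.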

Additional observations from a re-analysis of the deposited data

Results flagged for a closer look

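The log2 change of ANKRD1 with DMSO differed between frozen and fresh cells by -1.560 (SE 0.172, edgeR adjusted p = 3.89e-05), by a test of the difference itself. Within frozen cells, where solution and cooling rate changed together, ANKRD1 averaged 40.8 CPM in the DMSO-frozen and 134 in the osmolyte-frozen libraries. Its mean in fresh cells was 40.2 CPM. The change within fresh cells was -0.16, where 1 library with DMSO at 37.29 CPM stands against 41.28 and 42.01 CPM without. Of all 15564 genes, 437 passed the same test.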

How the results depend on the processing

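ANKRD1, AMOTL1, AXL and YAP1 kept their direction and call in osmolyte-frozen against DMSO-frozen cells under all 16 alternatives (ANKRD1 from 1.54 to 1.92 on the log2 scale), and, with LATS2, against fresh cells under all 15. In osmolyte-frozen against DMSO-frozen cells, 4 of the 10 genes were called higher, not 2, by DESeq2, by limma-voom, without robust estimation and with only the 5 frozen libraries, and 1 to 4 when each library was left out in turn (1 without the frozen 0 h DMSO library); all genes called ranged from 2136 to 5254. Scaling by library totals alone moved the calls from 2121 higher and 2563 lower (45.3% higher) to 2571 and 1985 (56.4% higher). Against fresh cells, limma-voom called 4 of the 10 higher and 3 lower, where it called 6149 of all 15564 genes in either direction. Leaving out each library there gave -0.218 to 0.114 for AMOTL2 and -0.008 to 0.144 for TEAD1. In DMSO-frozen against fresh cells, library totals gave -0.003 for ANKRD1 and -0.021 for YAP1; leaving out each library gave -0.181 to 0.198 for ANKRD1, -0.074 to 0.062 for YAP1 and -0.308 to 0.022 for AMOTL2, with 91 to 311 genes called, and DESeq2 called 496. For DMSO against no DMSO, the fit with the interaction called 4661 genes within frozen cells, with 4 of the 10 higher (AXL, YAP1, AMOTL1 and WWTR1) and 4 lower, and 7 within fresh cells, with 0 of the 10 higher and 0 lower, and gave -0.026 for AMOTL1, 0.065 for LATS2 and -0.154 for WWTR1 within fresh cells. Leaving out each library gave 17 to 4648 genes called, 0 to 4 of the 10 higher and 2 to 4 lower. The causes were not tested.

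No paired analysis was possible because the labels carry no replicate numbers and each library is a different condition. With 1 library per condition, solution, cooling rate and holding time limit what each group shows. The part of counting depth was not tested.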
